A study of Mus musculus with 4 samples.

Results

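Aminoacyl-tRNA synthetases join each amino acid to its transfer RNA (tRNA), the step that lets a ribosome read a codon as an amino acid. Of the genes listed in the deposited RNA sequencing table, 36 encode such enzymes, and they were taken by name from 23309 genes in all. The cytosolic set holds 20 genes and the mitochondrial set 16. All 36 were listed once, and all had a mean over the genotypes of at least 1 FPKM (counted fragments divided by transcript length and by the size of the library), the minimum used here, which 10766 genes reached.

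The libraries came from mouse embryonic stem cells, pluripotent cells of the early embryo kept in culture. The genotypes were wild type and a Chd2 mutant altered on both alleles, written Chd2 mut/mut in the labels and Chd2KO in the sample titles. Chd2 encodes a chromatin remodeler of the chromodomain helicase family. Cells of both genotypes were of the 129/Ola strain, at passages 10-20, and grew on gelatin without a stated feeder layer, in serum medium with leukemia inhibitory factor. Each genotype had 2 libraries of total RNA, lots 1 and 2, and the labels do not say if the lots came from separate cultures. The spread between these samples may thus be only technical, and how the q-values used it is not given in the sources used. The labels also do not say if the mutant was 1 clone. The table analysed gives 1 value per gene and genotype, so no value below carries a standard deviation, and significance is that of the q-values in the authors' deposited table.

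In the cytosol of mammalian cells these enzymes serve the ribosomes that translate nuclear messages, and several of them sit together in a multisynthetase complex. Mitochondria translate their own few messages and import a separate set of synthetases, made from nuclear genes and mostly named with a final 2. Gars and Kars each supply both compartments from 1 gene. Class I and class II synthetases have unrelated catalytic folds. Amino acid shortage and other stresses raise many cytosolic synthetase genes through the transcription factor ATF4, which acts at a promoter sequence called the amino acid response element.

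Chd2 itself had 10.2 FPKM in wild-type cells and 5.69 FPKM in mutant cells, and the authors' deposited table calls it lower with a q-value of 0.0103. All 8 stem cell markers were above 1 FPKM in both genotypes, none was called, and 7 were listed higher in the mutant, with a median of 0.15 on the scale of log2(FPKM + 1), or all 8, with 0.18, after quantile normalization. Among them Nanog was at 114 and 150.1 FPKM and Sox2 at 178 and 222 FPKM, a direction opposite to that of most synthetases, and the part of this in the results below was not tested. Of 8 fibroblast markers, Col3a1, Lum and Postn were listed at 0 in both genotypes and Dcn at 0 in wild type, and the 8 together summed to 15.9 FPKM in wild-type cells and 12.4 FPKM in mutant cells, most of it from Thy1 at 14.2 and 11.5 FPKM. All genes together summed to 806390 FPKM in wild-type cells and 809413 FPKM in mutant cells. In bulk RNA, fewer cells that express a gene and less RNA per cell cannot be told apart.

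Among the synthetases Lars2 alone was called different between the genotypes. Lars2, the mitochondrial leucyl-tRNA synthetase, whose human counterpart is a gene of Perrault syndrome, had 52.7 FPKM in wild-type cells and 33.5 FPKM in mutant cells. It fell to 63.5% of the wild-type level, a 1.57-fold decrease, with a log2 fold change of -0.65 and a q-value of 0.0103 in the authors' deposited table. That is the smallest q-value listed there, and 55 genes share it, Chd2 among them, so it does not rank these genes. In wild type Lars2 was the most abundant mitochondrial synthetase, and in the mutant it lay below Yars2. The 1 call among 36 members stands beside 0.461% of 11276 genes with a q-value under 1 that were called lower, and 0.718% called in either direction. An absolute log2 ratio of at least 0.5, used in place of the call, also took Lars2 and no other synthetase, against 5.12% of the genes kept.

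By size of change Lars2 ranked 45 of the 52 genes called lower in the authors' deposited table, the gene with the largest decrease being first. It was also among the more abundant of them, since 7 of the 52 had a higher wild-type level. On the scale of log2(FPKM + 1), used for all differences below and taken as mutant minus wild type, Lars2 differed by -0.64. Of the genes kept, 1.02% had a lower value. The nearest genes kept on either side of Lars2 in the RefSeq gene order of GRCm38, Tmem158 and Limd1, were at 1.22 and 1.20 FPKM and at 4.35 and 5.16 FPKM in wild type and mutant. Neither was called, nor were Exosc7 and Zdhhc3 on one side or Sacm1l and Lztfl1 on the other, whose differences lay between -0.15 and 0.17. Of the 50-base stretches in annotated Lars2 transcripts, 0.196% also occurred in transcripts of other genes. The largest shares were those of Gm47414, 0.169%, and Gm36618, 0.143%, while the antisense gene Gm15564 held 0.0267%. Only exact matches to annotated transcripts were counted, so reads of unannotated or merely similar sequence were not covered. Rn45s, the ribosomal RNA precursor and a sign of how far ribosomal RNA was removed, was listed at 672 and 591 FPKM, uncalled, lower in the mutant as Lars2 was. Whether reads of ribosomal RNA were counted at Lars2 was not tested, so the Lars2 level is uncertain to that extent.

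The bases before the Lars2 start are shown because this is the synthetase gene that was called. RefSeq places them at chr9:123366677-123366926 of GRCm38.p6, plus strand, and they end at the base before the transcript start. The authors mapped to the older build mm9, so these positions are not those of their alignment.
Lars2: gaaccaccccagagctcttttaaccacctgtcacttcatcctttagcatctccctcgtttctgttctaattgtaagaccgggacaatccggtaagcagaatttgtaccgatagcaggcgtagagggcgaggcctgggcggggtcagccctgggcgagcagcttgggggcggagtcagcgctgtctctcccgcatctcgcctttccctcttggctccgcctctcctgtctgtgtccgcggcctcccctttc
None of the 4 motifs searched, given with the promoters below, occurs in the Lars2 window, so no base is in capitals.

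**Figure D1:**
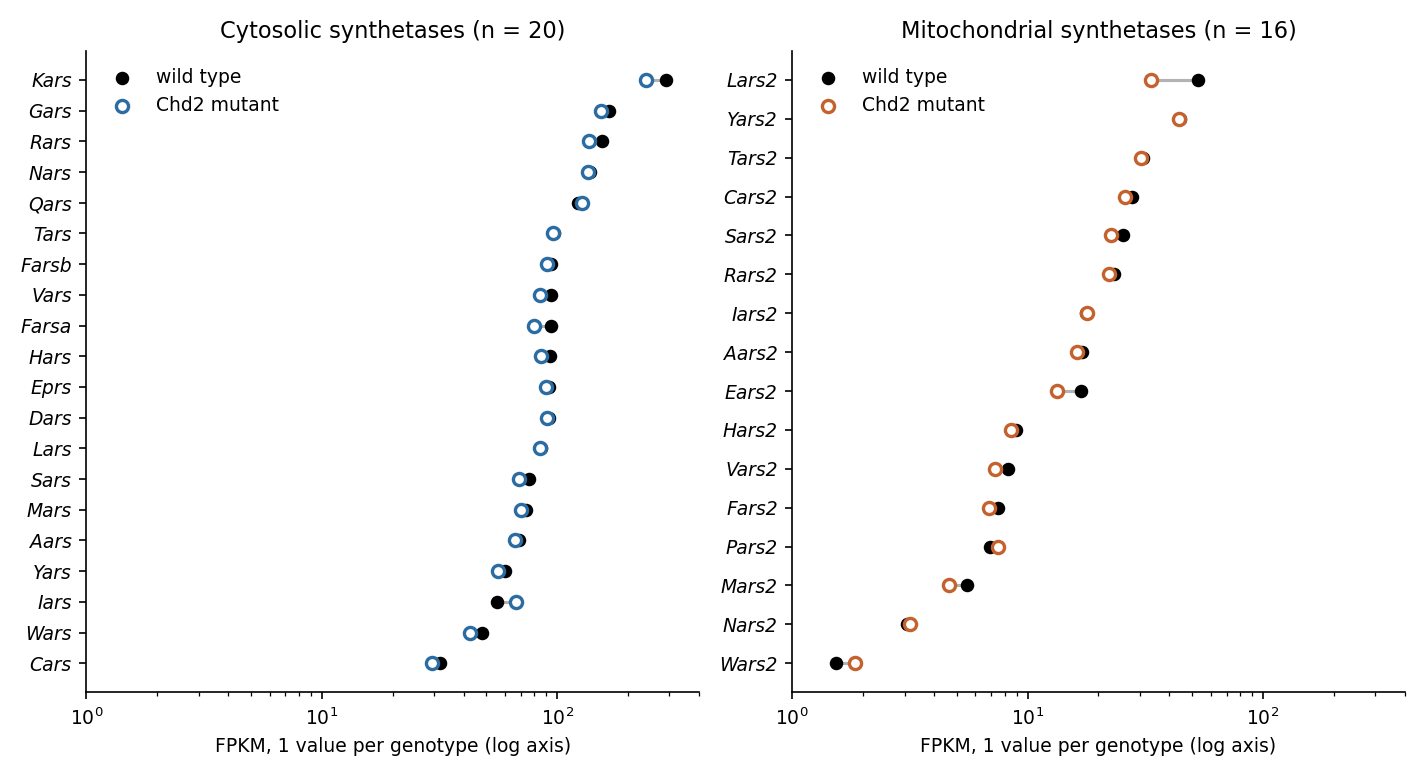
FPKM of each synthetase gene in wild type (black) and Chd2 mutant (open circles), 1 value per genotype on a log axis, with the 20 cytosolic genes on the left and the 16 mitochondrial genes on the right. Lars2 shows the widest gap, from 52.7 to 33.5 FPKM, while the circles of most other genes touch or overlap.

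The cytosolic synthetases were abundant, and none was called. Their wild-type levels ran from 31.8 FPKM for Cars, the cysteine enzyme, to 289 FPKM for Kars, the lysine enzyme, with a median of 92.7 FPKM. In the mutant they ran from 29.4 to 239 FPKM, with a median of 84.9 FPKM. The 20 genes summed to 2026 FPKM in wild-type cells and 1893 FPKM in mutant cells, or 0.251% and 0.234% of all FPKM. Lower values in the mutant were listed for 18 of the 20, and the median difference was -0.09, against -0.0012 over all genes kept. This count depends on the scaling: after quantile normalization of the genotypes 12 were lower and 8 higher, with a median of -0.03.

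Kars had the largest difference among cytosolic members, with 289 FPKM in wild-type cells and 239 FPKM in mutant cells. Farsa, the catalytic subunit of the cytosolic phenylalanine enzyme, was at 94.1 and 79.8 FPKM, whereas its partner subunit Farsb was at 94.5 and 90.7 FPKM. The arginine enzyme Rars was at 154 and 137 FPKM. Wars, for tryptophan, was at 48.1 and 42.7 FPKM, and Vars, for valine, at 94.5 and 84.2 FPKM. These genes were listed 10.9% to 17.3% lower in the mutant, Farsb apart, and the q-values in the authors' deposited table for Kars, Farsa, Rars, Wars and Vars ran from 0.655 to 0.954, far from a call.

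A further group of cytosolic genes differed less. Sars, for serine, was at 76.2 and 69.1 FPKM in wild type and mutant, and Hars, for histidine, at 93.1 and 85.4 FPKM. Cars was at 31.8 and 29.4 FPKM, the glycine enzyme Gars at 165 and 153.5 FPKM and the tyrosine enzyme Yars at 60.0 and 55.9 FPKM. All 5 lay 6.88% to 9.23% below wild type. Mars, for methionine, was at 73.9 and 70.3 FPKM and Aars, for alanine, at 68.9 and 66.5 FPKM.

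The remaining cytosolic genes were nearly level between the genotypes or higher in the mutant. Eprs, which carries a glutamate enzyme of class I and a proline enzyme of class II on 1 protein, was at 92.2 and 89.6 FPKM. Dars, for aspartate, was at 92.0 and 90.4 FPKM, Nars, for asparagine, at 138 and 135 FPKM, Lars, for leucine, at 85.5 and 84.3 FPKM, and Tars, for threonine, at 96.6 and 95.6 FPKM. The sign of these 5 genes and of Farsb turned under quantile normalization. Higher values in the mutant were listed for Qars, the glutamine enzyme, at 123 and 128 FPKM, and for Iars, the isoleucine enzyme, at 55.7 and 66.9 FPKM. Iars was at 1.20 times its wild-type level, the highest difference of the 36 members on the scale of log2(FPKM + 1), 0.26, and its q-value in the authors' deposited table was 0.697.

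The multisynthetase complex holds Dars, Eprs, Iars, Kars, Lars, Mars, Qars and Rars. Of these 8 genes 6 were lower in the mutant and 2 higher, with a median difference of -0.03. The 12 other cytosolic genes were all lower, with a median of -0.11. After quantile normalization 3 genes of the complex were lower and 5 higher, with a median of 0.04, and of the 12 others 9 were lower and 3 higher, with a median of -0.04. No test of this contrast was made. The genes of the scaffold proteins of the complex had RNA levels of the same order. Aimp1 was at 129 and 123 FPKM, Aimp2 at 106 and 88.1 FPKM, and Eef1e1 at 119 and 122 FPKM.

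Mitochondrial synthetases were less abundant and spread over a wider range. Wild-type levels ran from 1.53 FPKM for Wars2 to 52.7 FPKM for Lars2, with a median of 16.9 FPKM, and mutant levels from 1.85 FPKM for Wars2 to 43.8 FPKM for Yars2, with a median of 14.7 FPKM. The 16 genes summed to 298 FPKM in wild-type cells and 266 FPKM in mutant cells, and to 245 and 232 FPKM without Lars2. Lower values in the mutant were listed for 12 of the 16, and the median difference was -0.07, which was also -0.07 without Lars2. Quantile normalization left 10 lower and 6 higher, with the same median of -0.07. Over both sets 30 of 36 genes were lower, or 22 after quantile normalization, beside 50.4% of all genes kept, or 47.7% after quantile normalization.

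Ears2 came after Lars2. Ears2, the mitochondrial glutamate enzyme, which also charges the glutamine tRNA of mitochondria with glutamate for later conversion, had 16.8 FPKM in wild-type cells and 13.3 FPKM in mutant cells. That is 79.4% of wild type, with a q-value of 0.663 in the authors' deposited table. Mars2 was at 5.50 and 4.63 FPKM, Vars2 at 8.27 and 7.25 FPKM, Sars2 at 25.5 and 22.5 FPKM and Fars2 at 7.50 and 6.85 FPKM. These 5 genes lay 8.68% to 20.6% below wild type, and none was called.

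Values closer to wild type were listed for the others. Cars2 was at 27.8 and 25.98 FPKM, Aars2 at 17.0 and 16.1 FPKM, Hars2 at 8.91 and 8.47 FPKM and Rars2 at 23.2 and 22.2 FPKM. Tars2, at 30.9 and 30.4 FPKM, and Yars2, at 44.2 and 43.8 FPKM, were lower by under 2% and turned sign under quantile normalization. The 4 mitochondrial genes listed higher in the mutant were Iars2 (17.8 and 17.9 FPKM), Nars2 (3.07 and 3.18 FPKM), Pars2 (6.90 and 7.51 FPKM) and Wars2 (1.53 and 1.85 FPKM). Wars2, with the lowest level of all members, was at 1.21 times its wild-type level, a ratio just above that of Iars, and its q-value in the authors' deposited table was 0.926.

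**Figure D2:**
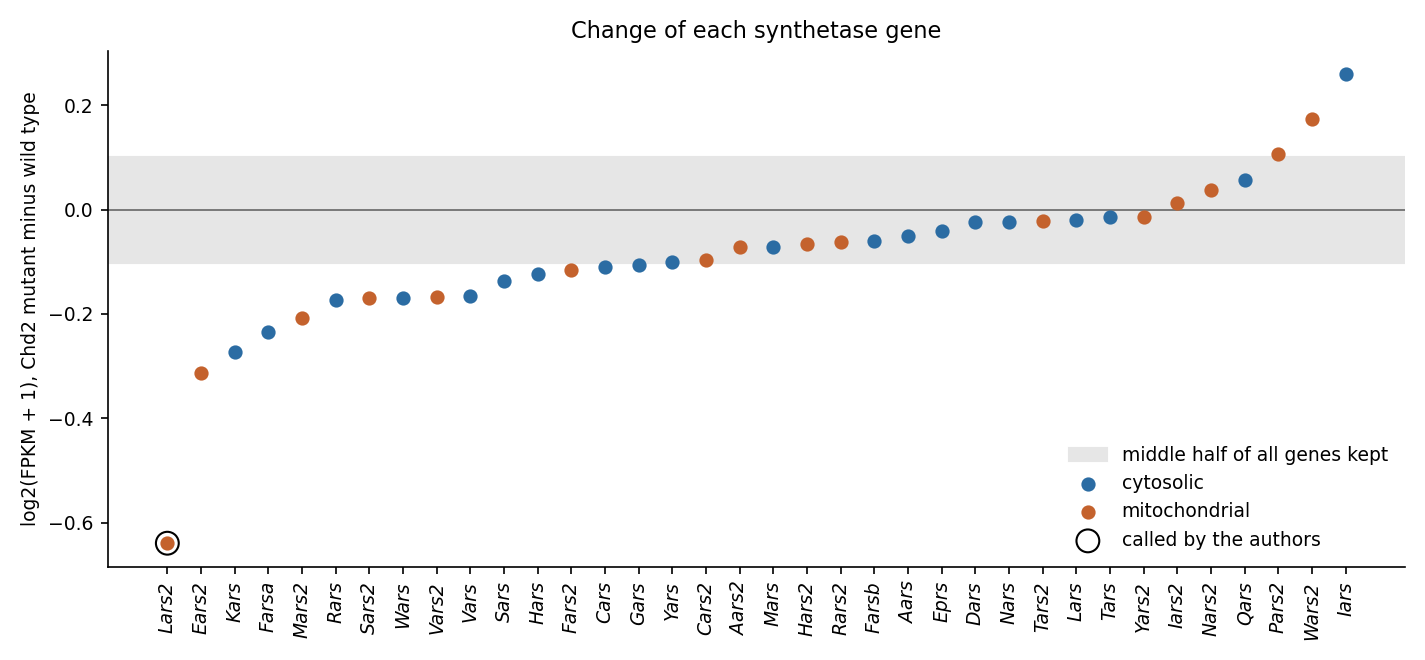
Mutant minus wild-type log2(FPKM + 1) of each synthetase gene in order of size, coloured by compartment, with the range between the quartiles of all genes kept in grey and the called gene ringed. Lars2 lies at -0.64, apart from Ears2 at -0.31, and 18 of the 36 genes lie in the grey band.

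The synthetases were then set beside all genes kept. The quartiles of the difference over all genes kept were -0.10 and 0.10. Between them lay 18 of the 36 members, while 15 lay below and 3 above. The 15 below were 9 cytosolic and 6 mitochondrial genes. The median size of the difference, sign aside, was 0.10 for the members and 0.10 for all genes kept. Only Lars2 and Ears2 were below the 5th percentile of all genes kept, -0.29, and no member was above the 95th percentile, 0.29. Across the 36 genes, which share 1 set of libraries, the mean level and the difference had a Spearman rho of -0.07. The 18 class I genes had a median difference of -0.10 with 14 lower, and the 17 class II genes -0.07 with 15 lower. After quantile normalization the medians were -0.06 with 12 lower and -0.04 with 10 lower. The medians of the compartments differed by 0.02, mitochondrial minus cytosolic. This contrast turned to -0.05 under quantile normalization and to -0.004 without Gars and Kars.

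The gene of the cytosolic enzyme had the higher RNA level for every amino acid that has a separate mitochondrial enzyme here. This held for 17 gene pairs that cover 16 amino acids, in both genotypes, on the FPKM scale. In wild type the cytosolic gene was at 1.14 times the mitochondrial gene for cysteine, at 1.36 times for tyrosine and at 1.62 times for leucine. At the other end the ratio was 31.5 for tryptophan and 44.8 for asparagine. The median of the ratios was 6.66 for wild type and 6.73 for the mutant. In proportion, leucine showed the largest shift, from 1.62 to 2.52, with Lars at nearly the same level in both genotypes. The next largest shift was that of tryptophan, from 31.5 to 23.1, where Wars2 was under 2 FPKM. In 13 of the 17 pairs both genes were listed lower in the mutant, and the ratio was higher in the mutant for 9 pairs and lower for 8.

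**Figure D3:**
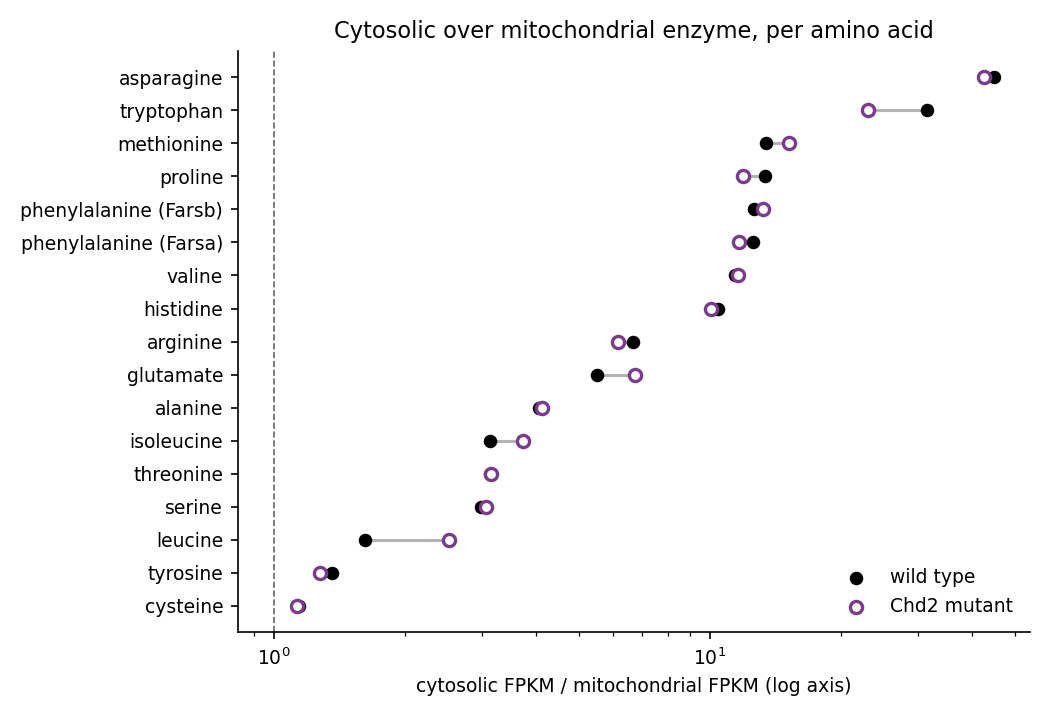
Ratio of the FPKM of the cytosolic gene to that of the mitochondrial gene for each amino acid, on a log axis, in wild type (black) and Chd2 mutant (open circles); Farsa and Farsb are each set against Fars2, and Eprs against Ears2 for glutamate and Pars2 for proline. All points lie above 1, and leucine moves from 1.62 to 2.52.

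The promoter table used, taken from RefSeq, held 27 of the 36 members, as 300 bases from 250 before to 50 after a gene's start on GRCm38.p6. Cars, Hars, Lars, Nars, Rars, Vars, Wars, Hars2 and Pars2 had no entry in that table. The letters searched on both strands were TGATGNAA for the amino acid response element, CGCATGCG for the core of the motif of NRF1 (a factor of nuclear genes for mitochondria), CACGTG for the E-box bound by MYC family factors, and CCGGAAGT for the core of ETS factor motifs. No pair of these motifs shares a base in the members' windows. A match is a stretch of letters and does not show that a factor binds there. Members were counted by gene, as holding a motif if any promoter entry of the gene matched. The shares of all promoters given below were counted by entry, so the measures differ.

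The amino acid response element was found in 5 members, Aars, Gars, Iars, Tars and Yars, against 3.97% of 32817 promoters in the table. All 5 belong to a list of 12 cytosolic synthetases written down as ATF4 targets from general knowledge, 8 of which had a promoter entry. None of the 19 other members with an entry held it, and no mitochondrial gene did. For each gene 1 window is printed, because the motif was found only in promoters of that list among the 27 members searched, and the match is in capitals. They lie at chr8:111033840-111033869 for Aars, chr6:55037960-55037989 for Gars, chr13:49682126-49682155 for Iars and chr4:129189895-129189924 for Yars, all on the plus strand, and at chr15:11399655-11399684 on the minus strand for Tars.
Aars: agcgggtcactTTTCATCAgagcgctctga
Gars: tggctgcgctaTTTCATCAtgcaccgggcg
Iars: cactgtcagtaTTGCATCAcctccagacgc
Tars: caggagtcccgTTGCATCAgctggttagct
Yars: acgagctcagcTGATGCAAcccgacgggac
The capitals begin 30 bases before the start in Gars and 15 before it in Tars, and within the first bases of the transcript in the others. Of these windows, the Yars match reads TGATGNAA along the gene, and those of the other 4 genes are its reverse complement.

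These 5 genes did not share a direction in the mutant: Iars was listed higher, at 0.26, while Aars, Gars, Tars and Yars lay between -0.01 and -0.11. Over the whole list of 12, which adds Cars, Eprs, Lars, Mars, Nars, Sars and Wars, 11 were lower and 1 higher, with a median of -0.06. After quantile normalization 7 were lower and 5 higher. The 8 other cytosolic genes had a median of -0.14, with 7 lower, and of -0.07, with 5 lower, after quantile normalization.

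The NRF1 core was found in Vars2 and Wars2, against 1.86% of all promoters in the table, and in no cytosolic member. Vars2 holds it 2 times within 56 bases at chr17:35667595-35667650 on the minus strand, and Wars2 once at chr3:99141016-99141045 on the plus strand, all before the start.
Vars2: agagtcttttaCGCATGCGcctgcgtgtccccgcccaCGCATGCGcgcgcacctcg
Wars2: cagaggacaggCGCATGCGtagtaagcaca
Vars2 was listed lower in the mutant, by 0.17, and Wars2 higher, by 0.17, both uncalled. The E-box was found in Aars, Farsb, Iars, Tars and Ears2, against 7.15% of all promoters, and the ETS core in Farsa, Mars and Rars2, against 3.89%.

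Partners of the synthetases had no call. The list of 13 genes holds, among others, the scaffolds above, Tarsl2, the amidotransferase subunits that turn glutamate into glutamine on mitochondrial tRNA, the formyltransferase that prepares the mitochondrial initiator tRNA, and proofreading enzymes. In the mutant 11 were lower and 2 higher, with a median of -0.12, and 12 were lower after quantile normalization. Aimp2 had the largest difference. Tarsl2, a second cytosolic threonine enzyme, was at 2.71 and 2.19 FPKM, Qrsl1, the catalytic amidotransferase subunit, at 8.65 and 7.26 FPKM, and Dtd1, which removes D-amino acids from tRNA, at 20.8 and 17.9 FPKM.

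Genes that process tRNA before it is charged were also uncalled. Of 26, such as the subunits of RNase P and the splicing endonuclease, 18 were lower and 8 higher, with a median of -0.07, and 13 were on each side after quantile normalization. Elac2, which trims the tRNA 3′ end, was at 39.9 and 33.4 FPKM, Pop5 of RNase P at 68.7 and 59.7 FPKM, and Tsen34 of the splicing endonuclease at 136 and 118 FPKM.

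The amino acid response list lay on the other side. Of 29 genes kept from 32, 19 were higher and 10 lower, with a median of 0.10, and the counts were the same after quantile normalization. None was called. Atf4 itself, which is no member and is given because the synthetase list rests on it, was at 114 and 137 FPKM with a q-value of 0.721 in the authors' deposited table. Nupr1, a stress-induced chromatin protein, was at 2.78 and 5.64 FPKM and the amino acid transporter gene Slc1a4 at 1.45 and 2.10 FPKM. Atf5 was at 22.2 and 15.9 FPKM and Ddit3, which encodes the stress factor CHOP, at 5.22 and 3.43 FPKM.

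**Figure D4:**
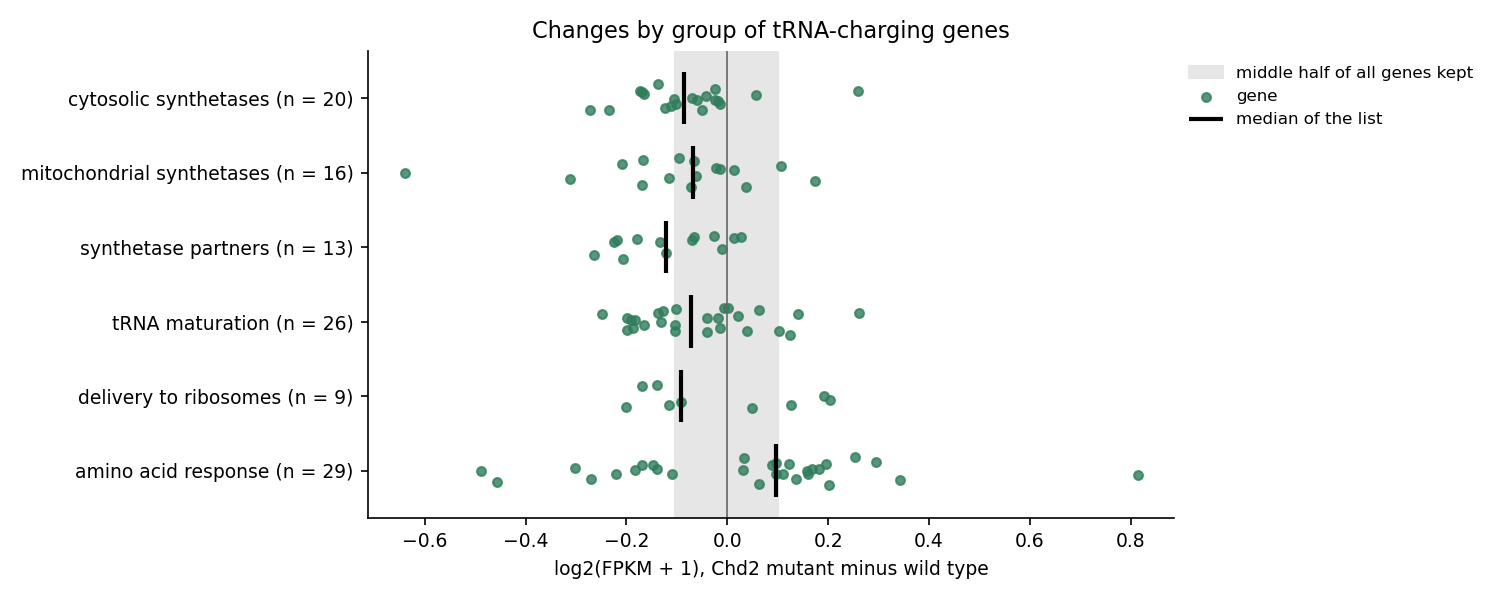
Mutant minus wild-type log2(FPKM + 1) for the genes kept of each group, with the median as a black bar and the range between the quartiles of all genes kept in grey. The medians run from -0.12 for the partners to 0.10 for the amino acid response list, at or near the edges of the grey band, and Lars2 is the lowest point of the mitochondrial row.

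Several members share transcribed sequence with other genes, and the use of strand in the authors' quantification is not given in the sources used. In GENCODE M21, 22.0% of the 50-base stretches of Iars2 transcripts lie opposite transcripts of Rab3gap2, and 13.5% of those of Aars are shared with Exosc6 on the same strand. Shares of 7.73% were found for Fars2 with Nrn1, 7.27% for Farsb with Sgpp2 and 6.45% for Vars2 with Gm20483, all on opposite strands. Iars shares 7.15% with the processed pseudogene Gm4849, and Hars 5.87% with the adjoining Hars2 on the opposite strand. Exosc6 was at 68.5 and 71.2 FPKM and Rab3gap2 at 8.57 and 8.31 FPKM, neither called, and Nrn1 and Sgpp2 were under 1 FPKM. The values of these members are uncertain to the extent that such reads were split between the genes, which was not tested.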

How the data were processed

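Libraries were made with the NEBNext Ultra RNA kit from total RNA, per the labels' protocols. bcl2fastq 2.17.1.14, TopHat2 2.1.0 and Cufflinks with build mm9 were used, per the submitters' processing notes. The deposited table holds FPKM as 1 value per genotype, with the authors' log2 fold change (plain ratio), q-value and yes or no call, recorded as other text, per the file headers. All calls have a q-value under 0.05, and their test is not given in the sources used. Depth is unknown, so no interval can be given. Values for each lot are not analysed here. The limma fit planned for values per library could not be run on 1 value per genotype.

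From the FPKM values the difference of log2(FPKM + 1) was computed (pandas 2.3.3, numpy 2.4.6) where the mean of a gene reached 1 FPKM. This scale understates changes of low genes. Other settings were a pseudocount of 0.1, no filter, a mean of at least 5 FPKM, quantile normalization, the median set to 0, and sets without Gars and Kars. All 36 members are named. Of each other list, called genes and the 4 largest differences are named, apart from items not reported here; the scaffolds, Atf4, neighbours and overlapping genes were named outside that rule after values were seen. The members and lists were chosen with earlier results of these data known. The code that computes the list medians was checked on simulated data, which is no test of these medians.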

Additional observations from a re-analysis of the deposited data

How the results depend on the processing

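No paired analysis was possible because the table holds 1 value per genotype, so the lot number could not enter as a block and no lot could be left out. The median difference of the cytosolic synthetases, -0.086, was -0.026 after quantile normalization, -0.085 with the median of all genes set to 0 and -0.065 without Gars and Kars. That of the mitochondrial synthetases, -0.069, was -0.084 among genes whose mean reached 5 FPKM. Over all 36 it was -0.072, and -0.084 among genes whose mean reached 5 FPKM and -0.042 after quantile normalization. The contrast of the medians, mitochondrial minus cytosolic, was 0.017. It was 0.013 with a pseudocount of 0.1, 0.002 among genes whose mean reached 5 FPKM, -0.046 after quantile normalization and -0.004 without Gars and Kars. The number of members higher in the mutant was 6, and 14 after quantile normalization. The median ratio of cytosolic to mitochondrial level in wild type was 6.66, and 4.05 without Eprs, Farsa and Farsb. The cause of these shifts was not tested. Lars2 lay between -0.65 and -0.60 in the settings run on it. Leaving out Lars2, a setting chosen after seeing the data, moved no list median by as much as 0.01. Of the 40 alternative values, 26 were unchanged at 2 decimals or, for counts, within 1.5 times, 12 moved and 2 turned sign. Some of the 26 could not change, so their number is no measure of stability. All 36 members pass the filter, so dropping it changes nothing. Leaving out Gars and Kars does not touch the mitochondrial set, and setting the median to 0 shifts both medians of the contrast alike. Without values per lot, the spread of these medians between lots is unknown.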

Other observations

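Factors that act on charged tRNA or start mitochondrial translation were split. Of 9 genes kept, 5 were lower in the mutant and 4 higher, with a median of -0.09, which was -0.04 after quantile normalization, and none was called. Eef1a1, which carries charged tRNA to the cytosolic ribosome, had 7683 FPKM in wild-type cells and 8853 FPKM in mutant cells. Its mitochondrial counterpart Tufm, named outside the rule with its values known, was at 168 and 152.5 FPKM, and Tsfm, which recycles Tufm, at 63.6 and 55.2 FPKM. The mitochondrial initiation factors Mtif2 and Mtif3 were at 13.7 and 15.8 FPKM and at 11.6 and 10.2 FPKM.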
